A study of Mus musculus with 15 samples.

Results

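The genes described here form the axis by which IL-12 and IL-18 act on T helper 1 (Th1) cells: the IL-18 receptor chains Il18rap and Il18r1, the IL-12 receptor chains Il12rb1 and Il12rb2, the signal transducer Stat4 and the transcription factor Tbx21 (T-bet). They were chosen by gene symbol, as every probe set whose annotation gives exactly 1 symbol and that symbol is one of the 6. This gave 6 probe sets of 36701, covering 5 of the 6 genes, and all 6 probe sets lie on chip type A. Tbx21 has no such probe set and is not analysed here. The cells were A.E7 (also written AE.7 in the labels), a mouse CD4 T helper clone, so all arrays come from 1 clone. Expression was read as array intensity on 15 arrays, 1 for each of 5 treatments on each of 3 chip types, and the chip types hold different probe sets.

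Every treatment but mock included anti-TCR, an antibody that engages the T cell receptor. CSA was anti-TCR with cyclosporin A, which blocks the phosphatase calcineurin and so the activation of NFAT. PKCi was anti-TCR with a protein kinase C inhibitor, given no further name in the labels. Combo was anti-TCR with rapamycin, which blocks mTOR, the MEK inhibitor PD98059 and the p38 inhibitor SB203580. Anti-TCR alone is named Anergic in the array titles, and mock cells were mock stimulated; doses are not in the labels. For each treatment RNA from 2, 4 and 6 h was pooled, so the values carry no time course. With 1 array per treatment and chip type there is no replicate, so values carry no error between cultures and no test was run, and precision is limited by the number of arrays. In such bulk RNA, fewer cells that carry a transcript and less of it per cell cannot be told apart.

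IL-12 binds a receptor of the chains IL-12Rβ1 and IL-12Rβ2, whose associated kinases Tyk2 and Jak2 activate Stat4. IL-18 binds the IL-18R1 chain and then recruits the accessory chain IL-18RAP, and the pair signals through Myd88 and the IRAK kinases. In Th1 cells both cytokines raise interferon gamma (Ifng), and T-bet sets and maintains the Th1 programme, in which Il12rb2 and the IL-18 receptor genes are expressed.

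Il18r1 and Il18rap are next to each other on mouse chromosome 1, and Stat4 lies further along the same chromosome. The 250 bases before the start of these 3 genes are shown because only these members gave bright signals. RefSeq (GRCm38.p6) holds promoter entries for 5 of the 6 genes, all but Il12rb1. Capitals mark GGAAA, the core to which NFAT binds, or its reverse complement TTTCC, and the sequences below are + strand, written 5′ to 3′ (Il18rap chr1:40515112-40515361, Il18r1 chr1:40465302-40465551, Stat4 chr1:51986898-51987147; where a gene has several entries, the first).
Il18rap: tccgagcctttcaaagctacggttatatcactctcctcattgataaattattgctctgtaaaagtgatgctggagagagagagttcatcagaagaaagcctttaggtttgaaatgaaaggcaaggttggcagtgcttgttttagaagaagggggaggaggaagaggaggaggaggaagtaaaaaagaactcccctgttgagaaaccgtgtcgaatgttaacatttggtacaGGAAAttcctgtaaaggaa
Il18r1: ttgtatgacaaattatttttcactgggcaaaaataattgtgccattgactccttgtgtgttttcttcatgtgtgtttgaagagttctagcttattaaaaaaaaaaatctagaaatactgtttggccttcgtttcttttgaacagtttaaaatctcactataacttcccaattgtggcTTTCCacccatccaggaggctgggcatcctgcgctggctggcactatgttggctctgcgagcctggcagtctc
Stat4: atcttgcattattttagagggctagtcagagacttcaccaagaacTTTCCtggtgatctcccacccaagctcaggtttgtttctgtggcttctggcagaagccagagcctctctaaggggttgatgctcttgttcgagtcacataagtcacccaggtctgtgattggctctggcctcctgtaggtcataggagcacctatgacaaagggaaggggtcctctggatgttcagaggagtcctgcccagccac

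Each of the 3 windows holds 1 GGAAA core, whose leftmost base lies 19 bases before the start for Il18rap (on the + strand), 73 for Il18r1 and 205 for Stat4 (both on the opposite strand). Such a core is common: 55.6% of 27025 promoters of the same length, 1 per gene, hold at least 1 on either strand. Both strands were also searched for the AP-1 motif TGANTCA (in 6.87% of promoters), the Stat motif TTCNNNGAA (7.18%) and the T-box motif GGTGTGA (3.31%), and none of the 3 has a match in the windows shown. This depends on the entry: the third RefSeq entry of Il18r1 holds 2 matches to TTCNNNGAA, and the second entry of Stat4 holds 2 GGAAA cores. A match is a run of letters and not a shown binding site.

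Each chip type has a floor, the median of all its values (51.1 on chip type A, 69.5 on B, 55 on C), and values under it were set to the floor for every log2 ratio. A probe set counts as measured in a comparison when the brighter value reaches 4 times the floor (204.4 on A, 278 on B, 220 on C). "Rose" and "fell" are used of measured probe sets whose values are at least 2-fold apart. A fold is given as "at least" where the lower value did not exceed the floor. As a yardstick, genes read on more than 1 chip type gave a technical SD of the log2 ratio for each pair of treatments. It holds differences between arrays and between probe sets, and none between cultures. A difference beyond 1 technical SD is only a weak mark, which unchanged genes can also pass. The cells carried the T cell markers: 7 of the 8 CD4 T cell genes listed are on the arrays and all 7 reached 4 times the floor, with Cd4 between 597.5 and 879.6. Their summed intensity was 7061 with CSA, 6238 with PKCi, 7562 with Combo and 7341 with anti-TCR alone, against 9404 with mock. Of the B cell markers 0 of 3 were bright (sums 130.8 to 156.9), of the macrophage and dendritic cell markers 1 of 6, Cd14 (203.4 to 293.3), with Adgre1, Csf1r and Lyz2 at or below the floor on every array (sums 320.0 to 502.2). Of 5 CD8 T and NK cell markers only Klrd1 was bright, and Cd8a, Cd8b1, Eomes and Ncr1 lay below the floor throughout. Klrd1 read 2320 with CSA, 2244 with PKCi, 1948 with Combo and 1594 with anti-TCR alone, against 4063 with mock; its part in the results on Stat4 and Il18r1, which were also highest in mock, was not tested.

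Il18rap, the accessory chain that completes the signalling IL-18 receptor, had its peak with anti-TCR alone. Its probe set (95333_at) read 162.1 with CSA, 125.5 with PKCi, 307.4 with Combo and 595.0 with anti-TCR alone, against 277.6 with mock. The anti-TCR array was the highest, Combo and mock were near each other, and CSA and PKCi were the lowest, 4.74-fold below the peak at most. In this order anti-TCR and Combo were further apart than the technical SD, and so were mock and CSA. Combo and mock, and CSA and PKCi, were not.

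Il18r1, the chain that binds IL-18, had a different order. Its probe set (101144_at) read 412.7 with CSA, 634.0 with PKCi, 687.5 with Combo and 651.5 with anti-TCR alone, against 1244.1 with mock. Mock was highest, CSA was lowest (3.01-fold lower), and PKCi, Combo and anti-TCR alone could not be separated by the technical SD. All 4 stimulated arrays lay below mock, whereas Il18rap lay above mock with anti-TCR alone by more than the technical SD.

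Stat4, the transducer of the IL-12 signal, was lowest where Il18rap was highest. Its probe set (102994_at) read 244.8 with CSA, 312.5 with PKCi, 304.1 with Combo and 150.2 with anti-TCR alone, against 568.1 with mock. The inhibitor arms lay between anti-TCR alone and mock and within the technical SD of their neighbours among themselves. Both outer steps, mock over PKCi and CSA over anti-TCR alone, were larger than that SD. The array with anti-TCR alone lay below 4 times the floor, at 3.78-fold under mock.

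The IL-12 receptor chains were dim on every array. Il12rb1, the chain shared with the IL-23 receptor, read 72.4 with CSA, 72.2 with PKCi, 62.8 with Combo and 148.8 with anti-TCR alone, against 85.0 with mock on 98240_at. The anti-TCR array was the highest, at 2.91 times the floor, and the step down to mock was 0.81 on the log2 scale. With 2 times the floor the step was 0.54. The technical SD was taken from measured probe sets only, so it is no yardstick for this dim probe set. The second Il12rb1 probe set (162408_f_at, whose f suffix marks shared sequence) stayed below the floor, with 6.0 with CSA, 20.9 with PKCi, 15.8 with Combo and 45.8 with anti-TCR alone, against 12.6 with mock. Il12rb2, the chain that recruits Stat4 and marks Th1 cells among helper cells, read 123.4 with CSA, 185.5 with PKCi, 89.5 with Combo and 71.5 with anti-TCR alone, against 76.6 with mock (99323_at). PKCi was the highest, at 3.63 times the floor, and anti-TCR alone and mock were the lowest. Neither gene entered a comparison, and such low values do not show whether the transcript was scarce or the probe set weak.

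**Figure D1:**
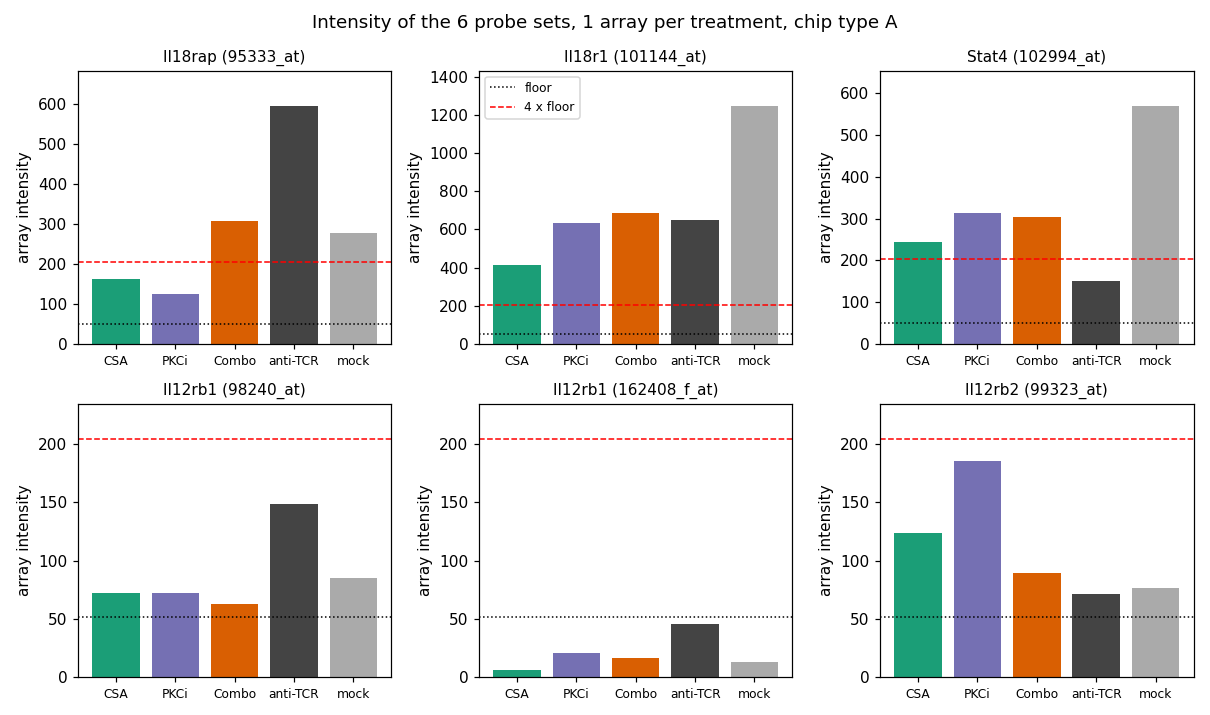
Intensity (linear axis from 0, arbitrary array units) of the 6 probe sets, with 1 bar per treatment (CSA, PKCi, Combo, anti-TCR alone and mock, left to right) and 1 array behind each bar; the dotted line is the chip type floor (51.1) and the dashed line 4 times the floor (204.4). Il18rap is highest with anti-TCR alone (595.0), Il18r1 and Stat4 with mock (1244.1 and 568.1), and the Il12rb1 and Il12rb2 bars stay under the dashed line.

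Anti-TCR alone against mock asks what engagement of the receptor does to the axis. Il18rap rose 2.14-fold (log2 ratio 1.10), and Stat4 fell 3.78-fold (log2 ratio -1.92). Il18r1 read 651.5 against 1244.1 (log2 ratio -0.93, 1.91-fold lower) and stayed short of the 2-fold limit. All 3 differences exceeded the technical SD of 0.76, at 2.54 times it for Stat4, 1.46 for Il18rap and 1.24 for Il18r1. Among 7452 measured probe sets with 1 symbol, 3.19% had a log2 ratio lower than that of Stat4, and 11.5% one higher than that of Il18rap. A log2 ratio lower than that of Il18r1 was seen in 15.2%. The call of Il18rap was lost with log2 of value plus floor, the log2 ratio running from 0.97 to 1.18 over the scalings and floors tried. Of the 3 measured members 1 rose and 1 fell, where 12.9% of all measured probe sets rose and 13.8% fell. The rise of Il18rap is thus of a size that many probe sets show, and the fall of Stat4 of a size that few show.

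CSA against anti-TCR alone asks what cyclosporin A, added to anti-TCR, does to the axis. No arm held an inhibitor without anti-TCR. An effect of a drug on its own thus cannot be told apart from block of the anti-TCR signal, here and below. Shares of a change left with an inhibitor carry the same limit. Il18rap fell 3.67-fold (162.1 with CSA, against 595.0 with anti-TCR alone, log2 ratio -1.88). This was the only call among the 3 measured members (0 rose, 1 fell), where 5.12% of all measured probe sets rose and 5.7% fell, and 1.95% lay lower than Il18rap. Il18r1 (log2 ratio -0.66) and Stat4 (0.70) did not reach the 2-fold limit, and both differences were larger than the technical SD of 0.48. The Il18rap level with CSA was below mock as well (log2 ratio -0.78, 1.71-fold lower, technical SD 0.64), and so were Il18r1 (-1.59, 3.01-fold lower) and Stat4 (-1.21, 2.32-fold lower). Of the log2 change of Stat4 with anti-TCR, 63.3% was left with CSA.

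PKCi against anti-TCR alone asks the same for the protein kinase C inhibitor. Il18rap fell 4.74-fold (125.5 with PKCi, against 595.0 with anti-TCR alone, log2 ratio -2.25), and Stat4 rose 2.08-fold (312.5 with PKCi, against 150.2 with anti-TCR alone, log2 ratio 1.06). Il18r1 differed little (634.0 with PKCi, against 651.5 with anti-TCR alone, log2 ratio -0.04). Thus 1 of the 3 measured members rose and 1 fell, where 14.4% of all measured probe sets rose and 10.5% fell. A log2 ratio lower than that of Il18rap was seen in 2.48% of probe sets and one higher than that of Stat4 in 13.4%. The call of Stat4 was lost with quantile normalization (0.85 to 1.06 over the scalings and floors tried). The technical SD was 0.71. Against mock, Il18rap was 2.21-fold lower with PKCi (log2 ratio -1.15), Il18r1 1.96-fold lower (-0.97) and Stat4 1.82-fold lower (-0.86), and 44.9% of the Stat4 change with anti-TCR was left.

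Combo against anti-TCR alone asks what rapamycin, PD98059 and SB203580, added together to anti-TCR, do. Stat4 rose 2.02-fold (304.1 with Combo, against 150.2 with anti-TCR alone, log2 ratio 1.02), just past the limit. Il18rap read 307.4 with Combo, against 595.0 with anti-TCR alone (log2 ratio -0.95, 1.94-fold lower), just short of it, and Il18r1 687.5 against 651.5 (0.08). Of the 3 measured members 1 rose and 0 fell, where 8.08% of all measured probe sets rose and 5.85% fell. A log2 ratio higher than that of Stat4 was seen in 7.76% of probe sets and one lower than that of Il18rap in 6.42%, and the technical SD was 0.55. The call of Stat4 was again lost with quantile normalization (0.82 to 1.13 over the scalings and floors tried). Against mock Il18rap lay at 0.15 (1.11-fold), within the technical SD of 0.69, Il18r1 at -0.86 and Stat4 at -0.90, with 47.0% of the Stat4 change left. The inhibitor comparisons share the anti-TCR array, so a deviation of that 1 array would move all of them together. Set side by side without it, PKCi was 2.45-fold below Combo in Il18rap (log2 ratio -1.29).

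**Figure D2:**
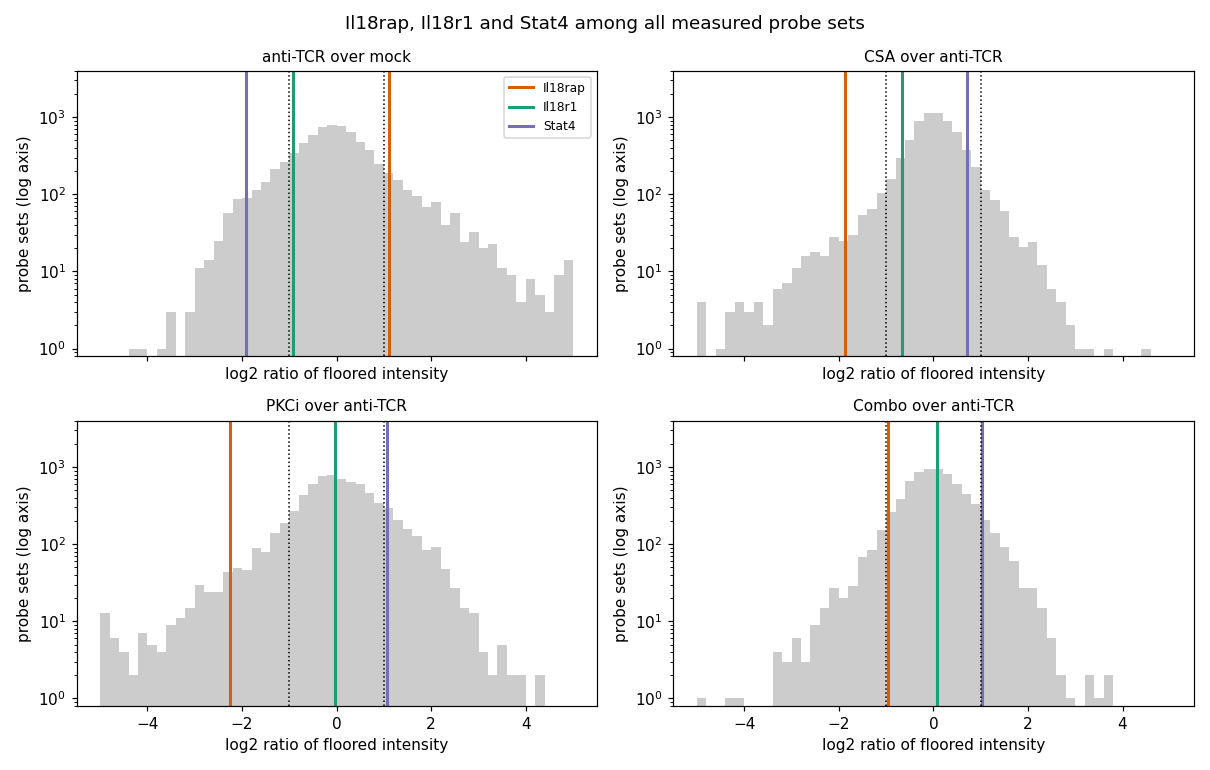
Histograms of the log2 ratio of floored intensity over all measured probe sets with 1 symbol in the 4 comparisons (y axis, number of probe sets on a log scale), with solid lines at Il18rap, Il18r1 and Stat4 and dotted lines at the 2-fold limits. Il18rap lies in the low tail with CSA (-1.88) and PKCi (-2.25), and Stat4 in the low tail with anti-TCR over mock (-1.92).

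**Figure D3:**
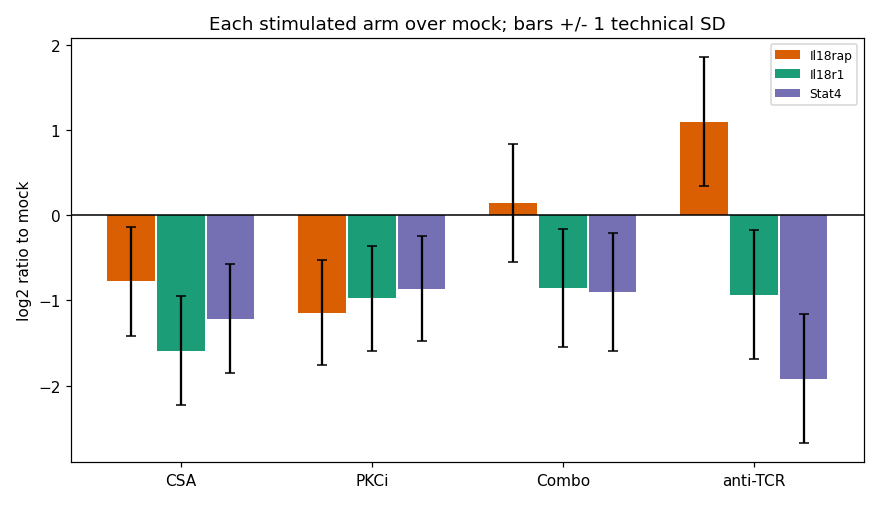
Log2 ratio to mock of Il18rap, Il18r1 and Stat4 (bars) in the 4 stimulated arms, 1 array each, with error bars of 1 technical SD between probe sets of the same gene and not between cultures. Il18r1 and Stat4 lie below mock in every arm, and Il18rap lies above it with anti-TCR alone (1.10) and below it with CSA (-0.78) and PKCi (-1.15).

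The IL-18 receptor chains, which serve 1 receptor and are chromosomal neighbours, were furthest apart in 3 comparisons that all hold the array with anti-TCR alone. The log2 ratio of Il18rap minus that of Il18r1 was 2.03 for anti-TCR alone against mock. Of 848 probe set pairs that read a single gene on separate chip types, 56 (6.60%) were at least that far apart. Both IL-18 receptor chains were read on chip type A, so such pairs also hold differences between arrays that the chains do not. The shares are therefore only a rough yardstick. For CSA against anti-TCR alone the difference was -1.22 (45 of 792 such pairs, 5.68%), for PKCi -2.21 (35 of 867, 4.04%) and for Combo -1.03 (125 of 839, 14.9%). The last of these is a size that probe sets of a single gene often show. In the 6 comparisons without that array the difference was -0.17 for PKCi against mock (78.6% of such pairs at least as far apart), -0.19 for CSA against Combo (75.6%), 0.82 for CSA against mock (29.9%), 1.0 for Combo against mock (24.2%), 0.99 for CSA against PKCi (15.4%) and -1.18 for PKCi against Combo (9.27%). The widest differences (-2.21 and 2.03) thus rest on 1 shared array. The difference for CSA against anti-TCR alone (-1.22) is close to that for PKCi against Combo (-1.18), which does not hold that array.

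Other genes of the IL-1 receptor cluster beside them gave few readings. Il1r2, the decoy receptor for IL-1 (an f-suffixed probe set), read 756.0 with CSA, 1130.4 with PKCi, 1505.2 with Combo and 1735.8 with anti-TCR alone, against 931.4 with mock. Like Il18rap it was highest with anti-TCR alone, and with CSA it fell 2.30-fold (log2 ratio -1.20, and -1.57 on its other measured probe set). With anti-TCR alone against mock its log2 ratio was 0.90, short of the limit, and 1.97 on the other probe set, past it. Il1r1, the signalling receptor for IL-1, lay below the floor on every array (3.9 to 19.4). Il1rl2, the IL-36 receptor, read 33.5 to 163.4 and did not reach 4 times the floor. Il1rl1 and Il23r, other neighbours of members, have no probe set with 1 symbol.

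Genes whose profile over the 5 treatments was closest to a member were found among 6336 probe sets by the root mean square (RMS) difference in log2 floored intensity after each profile was centred. For Il18rap they were Vsir, the inhibitory receptor VISTA (RMS difference 0.129), the lymphocyte GTPase gene Gimap5 (0.197) and Ahcyl2 (0.259). Vsir read 861.2 with CSA, 828.8 with PKCi, 2075.7 with Combo and 3963.2 with anti-TCR alone, against 1800.2 with mock, on chip type B. It has the same order of high and low arrays as Il18rap. For Il18r1 the closest were the cytochrome gene Cyp4v3 (0.143), Prkcq, which encodes protein kinase C theta (0.143), and Tnfaip8 (0.151). For Stat4 they were the LIM domain gene Crip1 (0.0770), the copine gene Cpne3 (0.0997) and the kinase gene Eef2k (0.110). The members were further from each other than that: Il18r1 and Stat4 were 0.463 apart, Il18rap and Il18r1 0.791, and Il18rap and Stat4 1.18. With 5 arrays per profile this is a description of likeness. The genes were picked on these same arrays, so a shared order, peak or low point follows from the choice. On chip type A, 3 of them reached 4 times the floor with mock only. These were Prkcq (276.5 with mock, 113.0 to 197.5 otherwise), Tnfaip8 (229.4, and 97.6 to 126.9) and Crip1 (351.9, and 97.8 to 194.3).

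**Figure D4:**
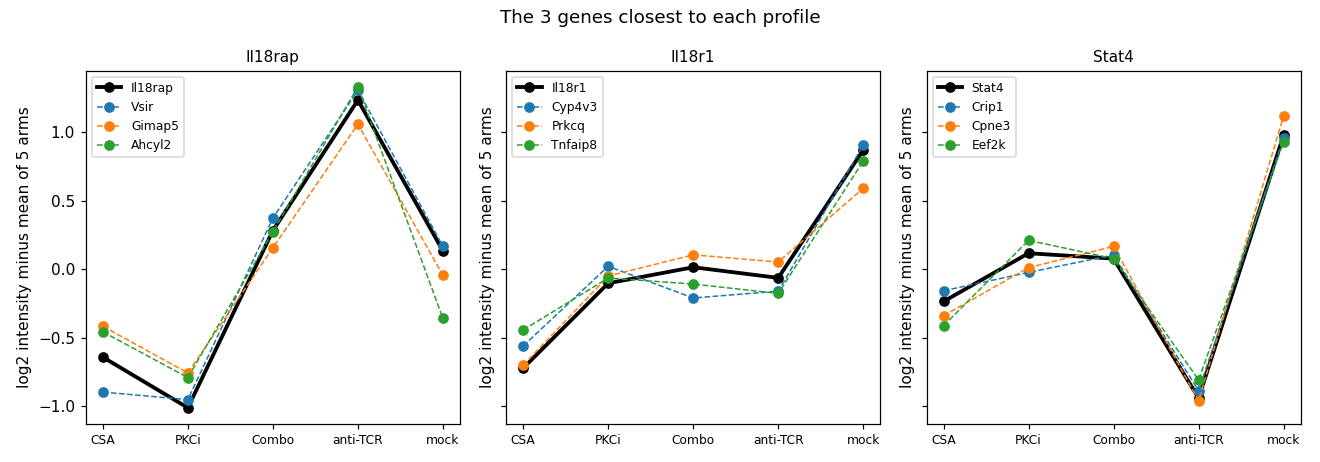
Log2 intensity minus the mean over the 5 treatments (y axis) for Il18rap, Il18r1 and Stat4 (thick black lines) and the 3 genes closest to each (dashed), with CSA, PKCi, Combo, anti-TCR alone and mock from left to right and 1 array per point. Il18rap peaks with anti-TCR alone, whereas Stat4 is lowest there. The closest genes share this because they were picked on these same arrays.

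The wider pathway was read from 87 genes in lists, of which 76 have a probe set with 1 symbol, each gene read on its probe set with the highest mean. With anti-TCR alone against mock, 13 of 47 measured pathway genes rose and 7 fell (median log2 ratio 0.24), where 11.4% of all 5803 measured genes rose and 13.9% fell (median -0.08). With CSA against anti-TCR alone 5 of 46 rose and 11 fell (median -0.14), where 4.84% of all genes rose and 5.34% fell (median 0.03). With PKCi 7 of 47 rose and 16 fell (median -0.39), where 14.3% rose and 9.75% fell (median 0.03). With Combo 10 of 49 rose and 4 fell (median -0.03), where 7.95% rose and 5.46% fell (median 0.02). The Th1 effector genes hold 8 of the 16 falls with PKCi and 5 of the 11 with CSA. The counts of single lists given below stand beside these same shares of all genes, and each list holds few measured genes.

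The ligands of the axis were not measured. Of 7 genes 5 have a probe set and 0 reached 4 times the floor in any comparison: Il12a (1.6 to 7.1), Il12b (15.5 to 42.8) and Il18 (10.1 to 47.1) lay below the floor, and Il18bp, the soluble IL-18 antagonist, and Ebi3 read 28.9 to 59.6 and 103.1 to 151.1. Among related receptor chains, 6 were measured in each comparison. With anti-TCR alone 0 rose and 2 fell on the probe sets used (median -0.24), Il1r2 being past the limit on its other probe set only: Ifngr1, the ligand-binding chain of the interferon gamma receptor, fell 4.24-fold (130.1 with anti-TCR alone, against 551.3 with mock), and Sigirr, a negative regulator of IL-1 family receptors, fell 3.02-fold on an s-suffixed probe set (268.3 with anti-TCR alone, against 809.3 with mock). Ifngr1 was higher in every inhibitor arm than with anti-TCR alone: it rose 3.21-fold with CSA (417.6), 9.25-fold with PKCi (1202.9) and 2.79-fold with Combo (363.6). Sigirr rose 2.58-fold with Combo (692.0 with Combo, against 268.3 with anti-TCR alone). With PKCi it just missed the limit (536.2, log2 ratio 0.999), and with CSA it differed little (301.2, log2 ratio 0.17). The list counts against anti-TCR alone were 1 up and 1 down with CSA (Ifngr1 and Il1r2, median 0.17), 1 and 0 with PKCi (median -0.15) and 2 and 0 with Combo (median -0.09).

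Of the Janus kinases and other Stats, 2 of 8 measured genes rose and 0 fell with anti-TCR alone on the probe sets used (median 0.05). Jak1 was not called (log2 ratio -0.55), but its other measured probe set gave 1.02, past the limit in the other direction. Jak2, which with Tyk2 serves the IL-12 receptor, read 172.4 with CSA, 212.7 with PKCi, 247.0 with Combo and 559.4 with anti-TCR alone, against 160.4 with mock. Its anti-TCR array was the highest of the 5, a rise of 3.49-fold over mock, and it fell 3.24-fold with CSA, 2.63-fold with PKCi and 2.26-fold with Combo. Jak3, the kinase of the common gamma chain receptors (s-suffixed probe set), rose 10.2-fold with anti-TCR alone (2872.9, against 282.0 with mock), and fell 2.74-fold with CSA (1049.6) and 3.06-fold with PKCi (938.2). Tyk2 (chip type B) read 254.1 with CSA, 211.4 with PKCi, 538.8 with Combo and 236.4 with anti-TCR alone, against 283.0 with mock. It stood out with Combo alone, where it rose 2.28-fold. Stat5b rose 3.23-fold with PKCi (1296.7, against 401.7 with anti-TCR alone). Stat3 read 483.9 with CSA, 637.0 with PKCi, 521.4 with Combo and 559.9 with anti-TCR alone, against 513.6 with mock, and was called in none of the 4 comparisons, although 2 further probe sets gave log2 ratios of 0.89 and 1.21 with PKCi. Thus the IL-12 transducer Stat4 fell with anti-TCR alone while the receptor kinase Jak2 rose and Stat3 showed no call. The counts against anti-TCR alone were 0 up and 2 down of 7 with CSA (median -0.20), 1 and 2 of 7 with PKCi (median 0.02) and 1 and 1 of 8 with Combo (median -0.08).

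In IL-18 signalling, 1 of 7 measured genes rose and 1 fell with anti-TCR alone (median 0.24), where 11.4% of all measured genes rose and 13.9% fell. These counts are near those shares. Map3k7 was not called on the probe set used (log2 ratio 0.24), but its other measured probe set gave -1.05, past the limit. Gadd45b, which is induced by IL-18 and activates p38 in Th1 cells (f-suffixed probe set), rose 10.3-fold (1714.5 with anti-TCR alone, against 166.6 with mock), with a log2 ratio of 2.69 on its other measured probe set. It fell 3.61-fold with CSA (474.4) and 6.90-fold with PKCi (248.3). Tab2, an adaptor of the kinase TAK1, fell 2.22-fold with anti-TCR alone (968.2, against 2152.0 with mock). Myd88, the adaptor of the IL-18 receptor, read 436.7 with CSA, 310.9 with PKCi, 367.7 with Combo and 467.9 with anti-TCR alone, against 269.2 with mock. It was highest with anti-TCR alone, like Il18rap, with a log2 ratio of 0.80 to mock that stayed short of 2-fold. The counts against anti-TCR alone were 0 up and 1 down of 6 with CSA (median 0.01), 0 and 1 of 6 with PKCi (median -0.32) and 0 and 0 of 6 with Combo (median 0.05).

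Among T-bet partners and other Th1 factors, 1 of 4 measured genes rose with anti-TCR alone and 0 fell (median 0.52). Ets1, a factor that works with T-bet, rose 3.06-fold (1512.2 with anti-TCR alone, against 493.5 with mock), with log2 ratios from 0.03 to 2.37 on its further probe sets. With CSA 0 of 4 were called (median -0.09). With PKCi 0 of 5 rose and 1 fell (median 0.28), namely Runx1 (2.67-fold, 462.9 with PKCi, against 1237.9 with anti-TCR alone). With Combo 1 of 5 rose and 0 fell (median -0.25), namely the interferon-induced factor Irf1 (3.14-fold, 430.1 with Combo, against 136.8 with anti-TCR alone). Factors of other helper lineages gave 1 rise and 0 falls of 6 with anti-TCR alone (median -0.03): Bcl6, the factor of follicular helper cells, rose 5.69-fold (308.0 with anti-TCR alone, against 54.1 with mock) and fell 5.62-fold with PKCi (54.8). Rora, a factor of Th17 cells, rose 2.08-fold with CSA (444.7), 3.62-fold with PKCi (774.4) and 3.04-fold with Combo (651.0), against 213.8 with anti-TCR alone. Zbtb7b, the CD4 lineage factor, rose 3.52-fold with CSA (375.5) and 2.69-fold with PKCi (287.8), against 106.8 with anti-TCR alone, and the aryl hydrocarbon receptor gene Ahr fell 2.74-fold with CSA (139.4) and 2.91-fold with PKCi (131.4), against 381.8 with anti-TCR alone. With Combo, Batf rose 2.67-fold (275.6, against 103.4 with anti-TCR alone) and Nfil3 2.00-fold (320.9, against 160.3). Gata3, the Th2 factor (f-suffixed, chip type C), read 278.4 with CSA, 431.5 with PKCi, 257.7 with Combo and 264.7 with anti-TCR alone, against 334.3 with mock, with no call (log2 ratio 1.28 with Combo on its other measured probe set). The counts of this list against anti-TCR alone were 2 up and 1 down of 7 with CSA (median 0.07), 2 and 2 of 7 with PKCi (median -0.38) and 3 and 0 of 8 with Combo (median -0.03).

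Th1 effector and target genes gave 6 rises and 3 falls of 11 measured with anti-TCR alone (median 1.39). Ifng, the cytokine that IL-12 and IL-18 raise together, read 538.2 with CSA, 84.1 with PKCi, 1272.6 with Combo and 3260.6 with anti-TCR alone, against 151.3 with mock. It was highest with anti-TCR alone, as Il18rap was: it rose 21.6-fold over mock, and fell 6.06-fold with CSA, 38.8-fold with PKCi and 2.56-fold with Combo. With CSA Ifng stayed above mock, whereas Il18rap lay below mock. The chemokine Ccl3 rose at least 26.7-fold with anti-TCR alone (1362.6, against 50.5 with mock, below the floor), lymphotoxin alpha (Lta, s-suffixed) at least 24.5-fold (1254.1, against 43.5), granzyme B (Gzmb) 4.44-fold (2021.4, against 455.0), Fasl 3.04-fold (1534.0, against 503.9) and the Stat4 target Furin 2.62-fold (1446.1, against 553.0). The falls were in the protease gene Ctsw (3.30-fold, 327.4 with anti-TCR alone, against 1081.8 with mock), the selectin ligand gene Selplg (3.02-fold, 1140.4, against 3448.2) and Tnf (2.52-fold, 132.8, against 334.5). Cxcr3, a T-bet target, read 83.1 with CSA, 70.4 with PKCi, 10.3 with Combo and 124.1 with anti-TCR alone, against 117.6 with mock, below 4 times the floor throughout.

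With CSA against anti-TCR alone 2 of 11 effector genes rose and 5 fell (median -0.71). The falls were Ifng, Lta (8.67-fold, to 144.6), Ccl3 (4.16-fold, to 327.9), Furin (2.88-fold, to 501.4) and Fasl (2.33-fold, to 657.2), and the rises Ccl4 (9.16-fold, 2171.1 with CSA, against 236.9 with anti-TCR alone) and Tnf (6.72-fold, 892.0 with CSA, against 132.8). With PKCi 2 rose and 8 fell (median -2.00). Besides Ifng the falls were Ccl3 (at least 26.7-fold, to 8.4), Lta (22.5-fold, to 55.7), Ccl4 (at least 4.64-fold, to 29.6), Gzmb (4.05-fold, to 498.6), Furin (2.64-fold, to 547.2), Fasl (2.26-fold, to 679.1) and, on a g-suffixed probe set, Nkg7 (3.99-fold, 3249.2 with PKCi, against 12953.4 with anti-TCR alone, and -1.81 to -0.35 on its further probe sets). Tnf (2.57-fold, to 340.9) and Selplg (2.05-fold, to 2333.4) rose. With Combo 3 rose and 3 fell (median -0.55): Tnf rose 13.4-fold (1786.0), Ccl4 10.9-fold (2571.3) and Ccl3 2.02-fold (2749.5), while Lta fell 5.11-fold (245.6), Gzmb 4.24-fold (476.7) and Ifng 2.56-fold. Gzmb (2140.8 with CSA) fell with PKCi and Combo and was not called with CSA, where Il18rap fell with CSA and PKCi and missed the limit with Combo; the differences between arms were not tested.

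Jak-Stat suppressors gave 2 rises and 1 fall of 5 with anti-TCR alone (median -0.15). Socs1, an inhibitor of Janus kinases, rose 10.2-fold (1195.9 with anti-TCR alone, against 117.4 with mock), and Cish, a cytokine-induced suppressor, 5.92-fold (1336.8, against 225.9), whereas the phosphatase gene Ptpn2 fell 2.19-fold (257.9, against 565.8). The other measured probe set of Ptpn2 gave a log2 ratio of -0.76, short of the limit. Socs1 fell 2.09-fold with CSA (572.0) and 2.20-fold with PKCi (544.3), Cish fell 6.80-fold with PKCi (196.5), and Socs2 rose 2.24-fold with PKCi (1728.5, against 773.2 with anti-TCR alone). The counts against anti-TCR alone were 0 up and 1 down with CSA (median -0.67), 1 and 2 with PKCi (median -0.11) and 0 and 0 with Combo (median -0.03), of 5 measured each.

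**Figure D5:**
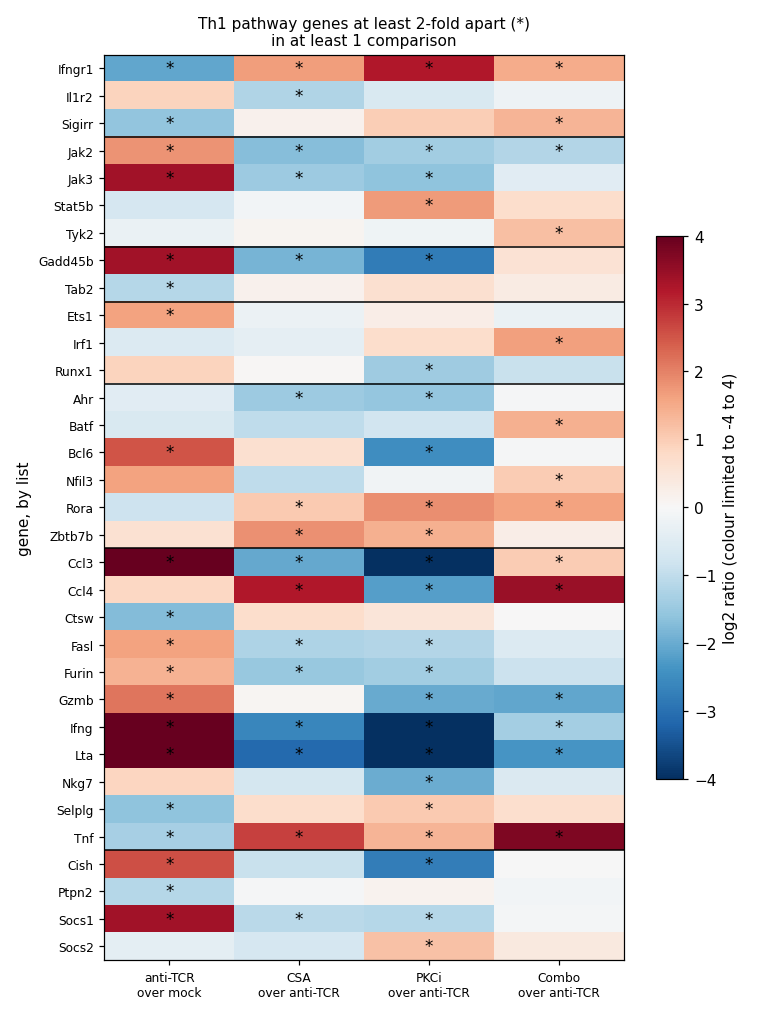
Log2 ratio (colour, limited to -4 to 4) of the pathway genes called in at least 1 of the 4 comparisons, grouped by list and split by horizontal lines, with 1 array per treatment behind each value; a star marks a measured gene at least 2-fold apart. Ifng, Lta and Jak2 carry stars in all 4 columns, higher with anti-TCR over mock and lower in each inhibitor arm. Ifngr1 and Tnf carry them with the opposite signs. Ccl3 carries them too, higher with anti-TCR over mock and with Combo, and lower with CSA and PKCi.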

How the data were processed

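The deposited values are array intensity on a linear scale, read from 1 table per chip type. They were taken to be scaled to a common level, because within each chip type the 2% trimmed means are nearly equal. No scaling method or software is given in the sources used here. No detection calls came with the values. Array titles gave the groups. All 15 value columns were used as deposited (0 left out). Chip types A, B and C hold 12422, 12411 and 11868 probe sets. Of these 29131 carry 1 gene symbol, 724 several and 6846 none, and only the first kind was used. Matching gene identifiers to RefSeq (29044 matched) changed 0 symbols. A suffix in the name of 8897 probe sets (r, i, f, s or g) stands for shared sequence or a broken selection rule. Array medians ran from 46.95 to 70.8, and 17.4% to 23.0% of the probe sets of an array reached 4 times the floor.

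Values below the chip type floor were raised to it, log2 ratios were taken, and the technical SD was taken from genes read on more than 1 chip type, as the SD of the differences between their log2 ratios over the square root of 2. Named are all members, every pathway gene called in the comparison described, Ifng, Cxcr3, Gata3, Stat3, Jak2, Tyk2 and Myd88 in any case (1 further gene of this rule is not reported here), and the 3 genes closest in profile to each bright member. The members and lists were chosen with earlier results of these data known, so no list is independent evidence. Alternatives were quantile normalization, median scaling, 0.5 and 2 times the floor, log2 of value plus floor, a minimum of 2 or 8 times the floor, limits of 1.5-fold and 3-fold, no suffixed probe sets and, for pathway genes, an average over all bright probe sets per gene. Python 3.11.15, numpy 2.4.6, pandas 2.3.3 and matplotlib 3.10.9 were used. The calling of large planted changes in bright probe sets was tested on simulated data, and calls near the 2-fold limit were not.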

Additional observations from a re-analysis of the deposited data

How the results depend on the processing

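No paired analysis was possible because each treatment has a single array of each chip type. Of 120 recomputed log2 ratios of members 0 reversed, and 112 moved by less than the technical SD; the 8 others concern Il12rb1 and Il12rb2, which are dim. The falls of Il18rap with CSA (log2 ratio between -1.92 and -1.60) and PKCi (-2.26 to -1.87) and of Stat4 with anti-TCR alone (-1.92 to -1.62) were called under every alternative run. The rise of Il18rap with anti-TCR alone (0.97 to 1.18) was lost with log2 of value plus floor and at 3-fold. Of the 6 probe sets, PKCi against anti-TCR alone calls 2; this was 1 with quantile normalization, with log2 of value plus floor, with a minimum of 8 times the floor and at 3-fold, since the rise of Stat4 was lost, and 4 with a minimum of 2 times the floor, which adds Il12rb1 (lower) and Il12rb2 (higher). Combo against anti-TCR alone calls 1, and the count was 0 under those first 4 settings, 2 with a minimum of 2 times the floor and 2 at 1.5-fold. Anti-TCR alone against mock calls 2, and 1 with log2 of value plus floor and 1 at 3-fold. CSA calls 1, and 2 with a minimum of 2 times the floor and 3 at 1.5-fold. The call added at that minimum with CSA and with Combo is Il12rb1 (lower). Counts of pathway genes called (20 for anti-TCR alone against mock, 16 with CSA, 23 with PKCi, 14 with Combo) were within 1.5 times under 38 of 44 alternatives; at 3-fold they were 9 with CSA, 13 with PKCi and 6 with Combo, and at 1.5-fold 31 with anti-TCR alone, 25 with CSA and 22 with Combo. Low signal over background left Il12rb1 and Il12rb2 without a measured value at 4 times the floor. Each bright member rests on 1 probe set and 1 array per treatment, and the 4 main comparisons share the anti-TCR array.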

Other observations

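Within 4 genes on either side of the members on their chromosomes, some bright genes also passed the 2-fold limit. Nabp1, near Stat4, rose with CSA (977.4 with CSA, against 361.3 with anti-TCR alone, log2 ratio 1.44), where Stat4 itself read 0.70. Beside Il12rb1, Arrdc2 rose with Combo (935.7 with Combo, against 397.3 with anti-TCR alone, log2 ratio 1.24), Mast3 with PKCi (495.7 with PKCi, against 247.2 with anti-TCR alone) and Ccdc124 with anti-TCR alone (330.8, against 153.1 with mock, log2 ratio 1.11). Nab1, on the other side of Stat4, read 1120.0 with CSA, 680.8 with PKCi, 655.7 with Combo and 853.9 with anti-TCR alone, against 811.7 with mock, with no call. These genes were named after their values were seen.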
